A study of Mus musculus with 6 samples.

Results

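The genes described here had less than 1 TPM in all 3 wild-type libraries and 1 TPM or more in all 3 Trim33 knockout libraries of primary alveolar macrophages. TPM is a length-scaled share of the transcripts of a library. In the deposited table of 17142 genes, 5714 were under 1 TPM in every wild-type library. Of these, 63 (1.1%) were at 1 TPM or more in every knockout library, and 53 remained once provisional symbols (Gm and Rik genes) and Neo1, Cadm2 and St6galnac5 had been left out. Cd40 was to be left out as well, but it did not meet the limits, with 1.07 TPM in wild-type replicate 1. The members were thus chosen by their values in the knockout and wild-type libraries, so every level and ratio of a member below is a description and carries no test. All 53 are annotated as protein coding.

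The knockout group holds 3 libraries labelled Trim33 knockout and the wild-type group 3 libraries of WT cells, and both were taken after the same single allergen challenge. The strain, sex and age of the mice, the allergen and the means by which Trim33 was deleted are not given in the labels used here. Alveolar macrophages are the resident phagocytes of the lung airspaces, and their identity depends on TGF-β and on granulocyte-macrophage colony-stimulating factor. Trim33 encodes TIF1γ, a tripartite-motif ubiquitin ligase that reads modified histones and binds SMAD proteins, the transcription factors of the TGF-β family. Genes that a cell type does not use are commonly kept off by repressive chromatin or by the lack of an activator, and which of these applies to the genes below was not measured.

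Trim33 itself had 2.63, 3.34 and 3.98 TPM in knockout replicates 1, 2 and 3, against 6.83, 10.97 and 6.86 TPM in wild-type replicates 1, 2 and 3. The groups did not overlap (exact permutation test, two-sided, p = 0.1, which is the least that 3 libraries against 3 can give). The knockout mean was 40.3% of the wild-type mean, so Trim33 transcript remained in the libraries labelled knockout. Each library had 15182 to 15535 genes above 0, and its sequencing depth is unknown. Of 20 genes that mark alveolar macrophages all were detected, and together they held 40458 to 42541 TPM in knockout libraries and 46295 to 50412 TPM in wild-type libraries. Nothing in the labels ties a library to an animal, so spreads and p-values describe these libraries and may be technical. In bulk samples fewer cells of a type and less RNA per cell cannot be told apart.

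Few of the 53 genes were silent in the strict sense. Only 4 of them, Dleu7, Pde11a, Try5 and Tdpoz5, were listed at 0 in all 3 wild-type libraries, while 43 were above 0 in all 3. The wild-type means ran from 0 to 0.873 TPM with a median of 0.49 TPM, and 25 genes averaged at least 0.5 TPM there. In knockout libraries the means ran from 1.17 to 9.73 TPM with a median of 2.16 TPM, 5 genes reached a mean of 5 TPM and none 10 TPM. Over the 49 genes not at 0 throughout wild type, the ratio of knockout to wild-type mean ran from 1.74 to 101 with a median of 4.25, and it was at least 10 for 15 of them. The genes therefore form a range, with low transcripts that crossed the limit of 1 TPM at one end and genes that were off in wild type at the other.

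**Figure D1:**
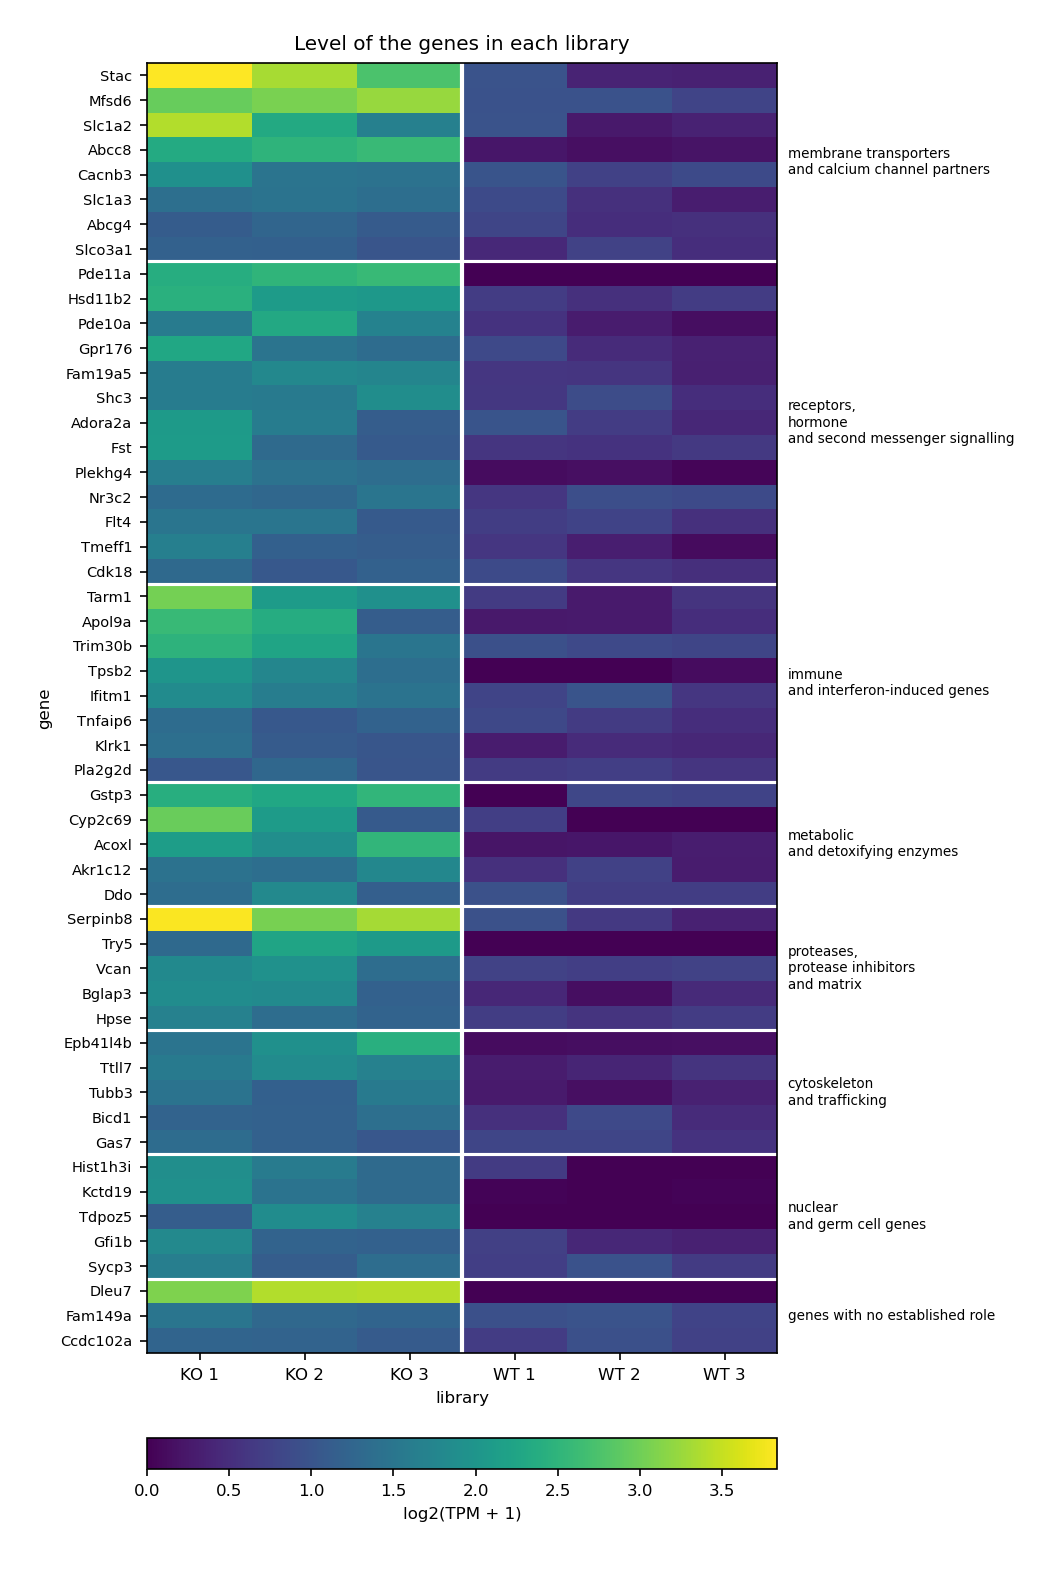
Level of the genes reported here as log2(TPM + 1), by library, with the 3 knockout libraries left of the 3 wild-type libraries and genes grouped by role. The brightest rows are Serpinb8, Stac, Dleu7 and Mfsd6, and the rows at the dark end of the scale in all wild-type libraries, at 0 TPM, are Dleu7, Pde11a, Try5 and Tdpoz5.

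Among the genes off in wild type, Dleu7 was the highest. It had 7.56, 9.53 and 9.76 TPM in knockout replicates 1, 2 and 3, against 0 in all 3 wild-type libraries. Dleu7 lies on chromosome 14 (62276229 to 62292979 on GRCm38.p6) in a region named for deletions in human lymphocytic leukaemia, and its protein has no settled function. Pde11a, which encodes a phosphodiesterase that breaks down both cAMP and cGMP, had 4.26, 4.70 and 5.01 TPM in the knockout libraries, against 0 in the wild-type libraries. Its 3 knockout values lay within a 1.18-fold range, among the tightest of the group. Its relative Pde10a, another dual-specificity phosphodiesterase, had 2.01, 3.97 and 2.26 TPM in knockout replicates 1, 2 and 3, against 0.47, 0.22 and 0.10 TPM in wild-type replicates 1, 2 and 3. Pde5a, the closest relative of Pde11a outside the group, stayed under 1 TPM in all 6 libraries, with means of 0.357 TPM in knockout and 0.433 TPM in wild type.

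Try5, a trypsin gene, had 1.49, 3.74 and 3.25 TPM in knockout replicates 1, 2 and 3, against 0 in the wild-type libraries. It lies inside the annotated span of the T cell receptor beta locus, and its relative Try4 was listed at 0 in all knockout libraries. Tdpoz5, of a family of BTB/POZ-domain genes known from oocytes and early embryos, had 1.19, 2.63 and 2.21 TPM in knockout replicates 1, 2 and 3, against 0 in the wild-type libraries. Exactly the same 6 values were listed for Gm10697 (RefSeq symbol Tdpoz7), so the reads of these near copies cannot be told apart. Kctd19, a gene of meiotic male germ cells in mouse, was nearly as low in wild type, with 2.80, 1.75 and 1.51 TPM in the knockout libraries, against 0.03, 0 and 0.03 TPM in the wild-type libraries, a ratio of means of 101.

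Promoter sequences from RefSeq (GRCm38.p6) were available for 41 of the 53 genes, as 48 windows, and the 250 bases before each annotated start were searched on both strands for short motifs. They are shown for 5 genes among the 20 with the highest knockout mean: the 2 highest members, the 2 highest of those at 0 throughout wild type, and an interferon-induced gene for contrast. Capitals mark every match, overlapping ones included, to ISRE (GAAA, any 2 bases, GAAA), GAS (TTC, any 3 bases, GAA), AP-1 (TGA, any base, TCA), PU.1 (AGGAAGT), SMAD (CAGACA), NF-kB (GGGA, any base, TTTCC), CRE (TGACGTCA) or the box of TATA promoters (TATAAA). The windows are, on the strand of the gene, chr1:107589756-107590005 for Serpinb8 (plus strand), chr9:111690349-111690598 for Stac, chr14:62292980-62293229 for Dleu7, chr2:76338939-76339188 for Pde11a and chr15:77411081-77411330 for Apol9a (all minus strand).
Serpinb8: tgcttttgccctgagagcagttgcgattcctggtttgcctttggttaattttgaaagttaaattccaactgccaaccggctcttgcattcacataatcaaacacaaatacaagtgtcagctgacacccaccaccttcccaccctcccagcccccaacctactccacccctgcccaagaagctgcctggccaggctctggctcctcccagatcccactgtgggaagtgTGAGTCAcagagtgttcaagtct
Stac: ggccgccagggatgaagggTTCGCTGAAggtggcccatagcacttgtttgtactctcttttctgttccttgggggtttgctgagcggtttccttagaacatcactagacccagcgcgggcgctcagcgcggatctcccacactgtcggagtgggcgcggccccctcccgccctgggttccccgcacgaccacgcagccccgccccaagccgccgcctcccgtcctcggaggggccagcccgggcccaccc
Dleu7: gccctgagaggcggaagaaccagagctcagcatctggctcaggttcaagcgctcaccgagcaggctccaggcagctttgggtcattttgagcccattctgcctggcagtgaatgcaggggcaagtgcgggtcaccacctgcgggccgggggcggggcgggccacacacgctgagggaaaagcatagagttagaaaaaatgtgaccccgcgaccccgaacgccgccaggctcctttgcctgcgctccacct
Pde11a: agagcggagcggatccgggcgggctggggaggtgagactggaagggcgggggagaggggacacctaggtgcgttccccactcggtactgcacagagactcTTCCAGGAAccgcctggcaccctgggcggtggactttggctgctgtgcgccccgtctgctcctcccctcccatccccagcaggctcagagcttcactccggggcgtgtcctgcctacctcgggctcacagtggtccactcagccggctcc
Apol9a: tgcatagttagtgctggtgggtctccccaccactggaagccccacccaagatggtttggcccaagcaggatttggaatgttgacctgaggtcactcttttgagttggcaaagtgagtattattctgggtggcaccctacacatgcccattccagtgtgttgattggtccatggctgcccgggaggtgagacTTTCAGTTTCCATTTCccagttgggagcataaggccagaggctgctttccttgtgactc

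The Apol9a window holds a pair of overlapping ISRE matches, the element bound by interferon-activated factors, beginning at positions -59 and -53 from the start. Dleu7 has no match to any of the 8 motifs, Stac and Pde11a have a single GAS match at positions -231 and -150, and Serpinb8 an AP-1 match at -23. Over the 48 windows, GAS matched 7 (14.6%), against 7.02% of all 32851 RefSeq windows, which cover 27025 genes and so more than the deposited table. ISRE matched 3 (6.25%, against 2.98%), which belong to Apol9a, with overlapping windows, and Tdpoz5. SMAD matched 4 windows (8.33%, against 17.1%), PU.1 5 (10.4%, against 7.69%), AP-1 4 (8.33%, against 6.75%) and TATA 3 (6.25%, against 12.4%). Neither NF-kB nor CRE matched any, and they are rare over all windows as well (0.356% and 1.55%). A match is only a match of letters, and a window without one says nothing of the factor.

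In base composition the promoters lay nearer to those of other genes under 1 TPM in wild type than to those of expressed genes. The ratio of observed to expected CpG, which is high in the CpG islands of widely expressed genes, had a median of 0.422 over the windows of the 53 genes and 0.38 over 5179 windows of genes under 1 TPM in wild type that did not meet the rule. It was 0.734 over 11014 windows of genes at 1 TPM or more in every wild-type library. A ratio of at least 0.6 was found in 35.4%, 29.5% and 66.8% of these windows. The genes spanned a median of 26.2 kb, against 22.9 kb and 22.4 kb in the same comparison sets. These are descriptions and were not tested.

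The 5 genes with a knockout mean of at least 5 TPM were Serpinb8, Stac, Dleu7, Mfsd6 and Slc1a2. Serpinb8, an intracellular serine protease inhibitor, had 12.98, 7.28 and 8.93 TPM in knockout replicates 1, 2 and 3, against 0.93, 0.56 and 0.27 TPM in wild-type replicates 1, 2 and 3. Its relative Serpinb6a had means of 283 TPM in knockout and 296 TPM in wild type (limma adjusted p 0.637). Stac, a cytoplasmic adaptor of voltage-gated calcium channels, had 13.27, 9.07 and 5.74 TPM in the knockout libraries, against 0.97, 0.30 and 0.27 TPM in the wild-type libraries. In Stac the first replicate was the highest of both groups, and the lowest knockout value was several times the highest wild-type value.

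Mfsd6, a membrane protein of the major facilitator superfamily, had 6.68, 7.34 and 8.47 TPM in knockout replicates 1, 2 and 3, against 0.95, 0.95 and 0.72 TPM in wild-type replicates 1, 2 and 3. Abcc8, which encodes the sulfonylurea receptor SUR1 of the pancreatic KATP channel, had 4.08, 4.65 and 5.07 TPM in the knockout libraries, against 0.18, 0.12 and 0.15 TPM in the wild-type libraries. Both genes had narrow groups that lay far apart. The pore subunits that SUR1 joins, Kcnj11 and Kcnj8, were listed at no more than 0.21 TPM in any library.

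Both glial glutamate transporter genes were among the 53. Slc1a2 (GLT-1) had 9.52, 4.03 and 2.18 TPM in knockout replicates 1, 2 and 3, against 0.97, 0.20 and 0.29 TPM in wild-type replicates 1, 2 and 3. Slc1a3 (GLAST) had 1.64, 1.74 and 1.62 TPM in the knockout libraries, against 0.82, 0.45 and 0.24 TPM in the wild-type libraries. The knockout values of Slc1a2 spanned a 4.37-fold range and those of Slc1a3 a 1.07-fold range. The family member that macrophages used most, the neutral amino acid carrier Slc1a5, had means of 71.2 TPM in knockout and 67.1 TPM in wild type (limma adjusted p 0.458). Cacnb3, a beta subunit of voltage-gated calcium channels that is also used as a marker of activated dendritic cells, had 2.80, 1.77 and 1.72 TPM in knockout replicates 1, 2 and 3, against 0.99, 0.68 and 0.82 TPM in wild-type replicates 1, 2 and 3. Of 8 other dendritic cell markers tested, 3 were higher and none lower (limma; 5 and 0 at an unadjusted p under 0.05), with 5 higher without wild-type replicate 1 and 1 without knockout replicate 1 or 2 or wild-type replicate 2 or 3. Over all 11111 genes tested, 977 were higher and 3163 lower at that unadjusted limit, and 3122 had a log2 difference above 0. Of the 8 dendritic cell markers, 6 had a log2 difference above 0. Among them Ccr7, the migration receptor of activated dendritic cells, had 5.21, 5.68 and 3.9 TPM in knockout replicates 1, 2 and 3, against 2.14, 1.58 and 1.22 TPM in wild-type replicates 1, 2 and 3. Clec9a did not rise, with 3.29, 1.95 and 1.67 TPM in the knockout libraries, against 3.04, 2.34 and 2.23 TPM in the wild-type libraries. Xcr1 and Flt3, of the same list, stayed under 1 TPM in every library, and Xcr1 had 0.39, 0.42 and 0.58 TPM in knockout, against 0.61, 0.89 and 0.59 TPM in wild type. The 14 markers of the list summed to 55.7 to 78.8 TPM in knockout and 35.8 to 49.6 TPM in wild type, none was at 0 in every library, and the part of such cells in the Cacnb3 values was not tested. The last genes of this role were the sterol transporter gene Abcg4, with means of 1.23 TPM in knockout and 0.537 TPM in wild type, and the organic anion transporter gene Slco3a1. Slco3a1 had 1.28, 1.26 and 1.01 TPM in knockout replicates 1, 2 and 3, against 0.36, 0.69 and 0.42 TPM in wild-type replicates 1, 2 and 3.

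**Figure D2:**
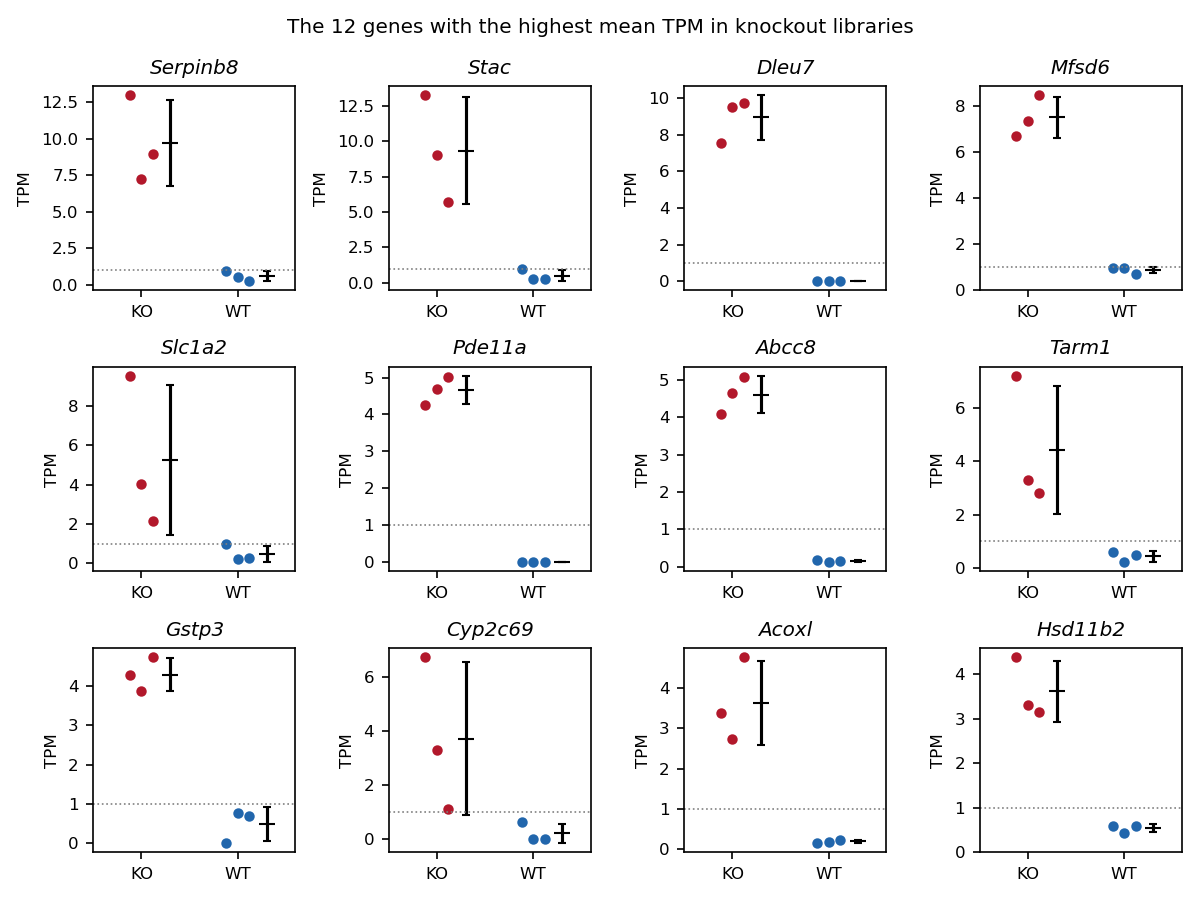
TPM of the 12 genes with the highest knockout mean, with a point for each library (knockout left of wild type), the mean and SD beside the points (n = 3 each) and a dotted line at 1 TPM. Dleu7 and Pde11a are at 0 in wild type, while the knockout values of Slc1a2 and Cyp2c69 span a 4.37-fold and a 6.03-fold range.

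Receptor and hormone signalling was the largest role, with 13 genes and knockout means from 1.28 to 4.66 TPM. Hsd11b2, the enzyme that inactivates corticosterone and so shields the mineralocorticoid receptor, had 4.39, 3.31 and 3.14 TPM in knockout replicates 1, 2 and 3, against 0.60, 0.44 and 0.60 TPM in wild-type replicates 1, 2 and 3. The gene of that receptor, Nr3c2, was a member too, with means of 1.59 ± 0.207 TPM in knockout and 0.743 ± 0.189 TPM in wild type (SD, n = 3 each). The glucocorticoid receptor gene Nr3c1, which is no member, fell to a mean of 24.4 TPM in knockout, against 38.6 TPM in wild type (log2 difference -0.62 ± 0.14 SE, limma adjusted p 0.0212). That call was lost without knockout replicate 1 or 2, without wild-type replicate 3 and without the filter on low values.

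Adora2a, the adenosine receptor that dampens leukocyte activation, had 3.26, 2.04 and 1.2 TPM in knockout replicates 1, 2 and 3, against 0.99, 0.61 and 0.35 TPM in wild-type replicates 1, 2 and 3. The other adenosine receptor genes differed in level and direction. Adora3 fell to 5.07 TPM in knockout, against 10.2 TPM in wild type (log2 difference -0.88 ± 0.16 SE, limma adjusted p 0.0112, lost without wild-type replicate 3). Adora2b had means of 13.3 TPM in knockout and 8.0 TPM in wild type and did not pass (limma adjusted p 0.0693). Gpr176, an orphan receptor known from the circadian clock of the brain, had 3.88, 1.78 and 1.56 TPM in knockout replicates 1, 2 and 3, against 0.79, 0.38 and 0.28 TPM in wild-type replicates 1, 2 and 3.

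The remaining signalling genes were the secreted brain protein gene Fam19a5 (Tafa5), the adaptor gene Shc3, the activin-binding follistatin gene Fst, the follistatin-like transmembrane protein gene Tmeff1, the lymphatic growth factor receptor gene Flt4, the kinase gene Cdk18 and the guanine nucleotide exchange factor gene Plekhg4. Their means ran from 1.28 TPM for Cdk18 to 2.29 TPM for Fam19a5 in knockout, while in wild type they ran from 0.08 TPM for Plekhg4 to 0.607 TPM for Shc3. Fst had 3.32, 1.5 and 1.13 TPM in knockout replicates 1, 2 and 3, against 0.50, 0.47 and 0.55 TPM in wild-type replicates 1, 2 and 3, so that a single knockout library held most of its knockout signal. The 14 lung endothelial markers summed to 73.07 to 78.45 TPM in knockout and 72.2 to 141.75 TPM in wild type. Of 13 tested, none was higher and 1 was lower (limma, and 0 and 2 unadjusted, against 977 and 3163 of all 11111 genes tested). With knockout replicate 1 or 2 or wild-type replicate 3 omitted, 0 were lower. The part of such cells in the Flt4 values was not tested.

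Immune genes numbered 8. Tarm1, an activating receptor of myeloid cells, had 7.20, 3.30 and 2.81 TPM in knockout replicates 1, 2 and 3, against 0.59, 0.21 and 0.49 TPM in wild-type replicates 1, 2 and 3. Apol9a, an interferon-induced apolipoprotein L gene, had 4.97, 4.17 and 1.19 TPM in the knockout libraries, against 0.20, 0.21 and 0.42 TPM in the wild-type libraries. Its near copy Apol9b had 27.36, 19.94 and 7.07 TPM in knockout, against 4.50, 0.40 and 0.83 TPM in wild type, and reads may have been shared between them. In both genes knockout replicate 3 was far below the other knockout libraries.

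Trim30b, of a tripartite-motif cluster on chromosome 7, had 4.59, 3.71 and 1.81 TPM in knockout replicates 1, 2 and 3, against 0.91, 0.79 and 0.75 TPM in wild-type replicates 1, 2 and 3. Ifitm1, of the interferon-induced transmembrane family, had 2.61, 2.10 and 1.76 TPM in the knockout libraries, against 0.73, 0.99 and 0.53 TPM in the wild-type libraries. Both have abundant relatives next to them, from which reads may have been shared. Trim30a rose to 100.2 TPM in knockout, against 55.4 TPM in wild type (limma adjusted p 0.0114, lost without wild-type replicate 3). Ifitm2 rose to 210.6 TPM, against 142 TPM in wild type (limma adjusted p 0.00647). Ifitm3 had means of 390 TPM in knockout and 61.4 TPM in wild type and did not pass (limma adjusted p 0.0607).

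Tpsb2, a mast cell tryptase gene, had 2.99, 2.38 and 1.61 TPM in knockout replicates 1, 2 and 3, against 0, 0 and 0.09 TPM in wild-type replicates 1, 2 and 3. Of the other mast cell genes, Cpa3, Mcpt4, Cma1 and Ms4a2 were at or near 0, listed at no more than 0.17 TPM in any knockout library and no more than 0.28 TPM in any wild-type library. Hdc, the histamine-forming enzyme of mast cells and basophils, rose, with 4.92, 3.07 and 2.98 TPM in knockout replicates 1, 2 and 3, against 1.57, 1.59 and 1.07 TPM in wild-type replicates 1, 2 and 3 (limma adjusted p 0.0179, lost without knockout replicate 1 or wild-type replicate 3). The 11 eosinophil, basophil and mast cell markers in the table summed to 45.6 to 56.6 TPM in knockout and 56.4 to 88.8 TPM in wild type, mostly from Siglece, at 35.41 to 50.48 TPM in knockout and 52.09 to 83.66 TPM in wild type. Of 3 of these markers tested outside the group, Hdc alone was higher and none lower (limma), with 1 and 2 at an unadjusted p under 0.05. The median log2 difference was -0.45. Il5ra had 0.98, 0.70 and 0.35 TPM in knockout replicates 1, 2 and 3, against 1.31, 1.48 and 1.01 TPM in wild-type replicates 1, 2 and 3. The part of such cells in the Tpsb2 values was not tested. Klrk1, the activating receptor NKG2D of natural killer and T cells, had 1.64, 1.14 and 1.03 TPM in knockout replicates 1, 2 and 3, against 0.23, 0.38 and 0.35 TPM in wild-type replicates 1, 2 and 3. The natural killer gene Ncr1 was listed at 0.43 TPM or less in every library, and Klrd1 at 0.88 to 1.4 TPM in knockout and 0.44 to 1.53 TPM in wild type. Gzma, of the same cells, had 4.26, 3.72 and 4.66 TPM in knockout replicates 1, 2 and 3, against 2.15, 3.06 and 1.73 TPM in wild-type replicates 1, 2 and 3. Of 7 T and natural killer cell markers tested, 3 were higher and none lower (limma), with 0 higher when any knockout library was omitted. The part of such cells in the Klrk1 values was not tested. Tnfaip6, a hyaluronan-binding protein made in inflammation, had means of 1.32 TPM in knockout and 0.59 TPM in wild type. Pla2g2d, a secreted phospholipase, had 1.05, 1.44 and 1.01 TPM in the knockout libraries, against 0.58, 0.64 and 0.50 TPM in the wild-type libraries.

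Metabolic enzymes supplied 5 members. Gstp3, a glutathione transferase gene, had 4.27, 3.87 and 4.73 TPM in knockout replicates 1, 2 and 3, against 0, 0.77 and 0.70 TPM in wild-type replicates 1, 2 and 3. Its abundant relative Gstp1 had means of 163 TPM in knockout and 173 TPM in wild type (limma adjusted p 0.465). Acoxl, an acyl-CoA oxidase-like gene, had 3.37, 2.73 and 4.76 TPM in the knockout libraries, against 0.16, 0.18 and 0.24 TPM in the wild-type libraries. Cyp2c69, a cytochrome P450 gene, had 6.75, 3.31 and 1.12 TPM in knockout replicates 1, 2 and 3, against 0.63, 0 and 0 TPM in wild-type replicates 1, 2 and 3, the widest knockout range of the 53 as a fold (6.03). The aldo-keto reductase gene Akr1c12 and the D-aspartate oxidase gene Ddo had knockout means of 1.91 and 1.78 TPM and wild-type means of 0.45 and 0.723 TPM.

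Of the matrix genes, Vcan, the proteoglycan versican of monocytes, had 2.52, 2.85 and 1.58 TPM in knockout replicates 1, 2 and 3, against 0.69, 0.64 and 0.69 TPM in wild-type replicates 1, 2 and 3. The heparan sulfate-cleaving enzyme gene Hpse and the osteocalcin-related gene Bglap3 had knockout means of 1.71 and 2.16 TPM and wild-type means of 0.57 and 0.27 TPM. Cytoskeletal and trafficking genes numbered 6, and several are best known from neurons. Epb41l4b, a membrane-cytoskeleton linker, had 1.79, 2.78 and 4.35 TPM in knockout replicates 1, 2 and 3, against 0.09, 0.10 and 0.12 TPM in wild-type replicates 1, 2 and 3, with the order of its knockout libraries opposite to that of the interferon-induced genes.

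Tubb3, the neuronal β-tubulin gene, had 1.75, 1.27 and 1.95 TPM in knockout replicates 1, 2 and 3, against 0.21, 0.12 and 0.27 TPM in wild-type replicates 1, 2 and 3. Its lowest knockout value was several times its highest wild-type value. The tubulin-modifying enzyme gene Ttll7, the dynein adaptor gene Bicd1 and the actin-binding protein gene Gas7 had knockout means of 2.27, 1.41 and 1.30 TPM and wild-type means of 0.343, 0.547 and 0.653 TPM.

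Nuclear and germ cell genes were the last named role. Sycp3, a component of the meiotic synaptonemal complex, had 2.11, 1.2 and 1.58 TPM in knockout replicates 1, 2 and 3, against 0.64, 0.96 and 0.58 TPM in wild-type replicates 1, 2 and 3. It shares 3724 bases with the oppositely oriented phospholipid synthesis gene Chpt1, which rose to 81.6 TPM in knockout, against 38.5 TPM in wild type (limma adjusted p 0.0117, lost without wild-type replicate 2 or 3), and whether the counting used strand is not given in the sources used here. Gfi1b, a transcriptional repressor of erythroid and platelet precursors, had means of 1.71 ± 0.69 TPM in knockout and 0.427 ± 0.206 TPM in wild type (SD, n = 3 each). Of 4 erythroid and platelet markers tested, none was higher or lower (limma), with 1 higher without wild-type replicate 1. Pf4 among them had 75.11 to 93.73 TPM in knockout and 37.13 to 87.12 TPM in wild type. The part of such cells in the Gfi1b values was not tested. The histone H3 gene Hist1h3i had 2.72, 2.01 and 1.51 TPM in knockout replicates 1, 2 and 3, against 0.58, 0 and 0 TPM in wild-type replicates 1, 2 and 3, and is one of many near-identical histone genes. Fam149a and Ccdc102a, of no established role, had the smallest ratios of means in the group, 1.78 and 1.74.

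Members at the edge of the limit were close to genes just outside it. The lowest knockout values of Slco3a1, Pla2g2d and Klrk1 were 1.01, 1.01 and 1.03 TPM, while Trpm1, Apod and Clic6 missed with lowest knockout values of 0.99, 0.98 and 0.97 TPM. On the wild-type side Adora2a, Ifitm1 and Cacnb3 each reached 0.99 TPM, whereas Dact2, Ifi44 and Klhl41 reached 1.0 TPM and were left out. In the opposite direction, 32 of 10671 genes at 1 TPM or more in every wild-type library (0.3%) were under 1 TPM in every knockout library, 30 of them with established symbols. Marchf4, Zfp966 and Egfem1 were the highest of these in wild type, with means of 0.56, 0.25 and 0.07 TPM in knockout and 5.17, 4.09 and 3.73 TPM in wild type.

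The knockout libraries did not carry the 53 genes evenly. Knockout replicate 1 was the highest of its group for 30 of the 53 (56.6%), against 29.4% of 11048 other genes tested, and knockout replicate 3 was the lowest for 32 (60.4%), against 31.5%. Summed over the 53, knockout replicates 1, 2 and 3 had 173, 145 and 129.9 TPM, against 27.2, 22.9 and 19.2 TPM in wild-type replicates 1, 2 and 3. Wild-type replicate 1 was the highest wild-type library for 23 genes (43.4%), against 21% of other genes. The mean log2(TPM + 1) of 37 type I interferon response genes outside the group was 6.82, 6.66 and 5.93 in knockout replicates 1, 2 and 3 and 5.44, 4.14 and 4.74 in wild-type replicates 1, 2 and 3, so the same knockout library was highest and the same lowest. The part of this order in the values of the 53 genes was not tested.

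**Figure D3:**
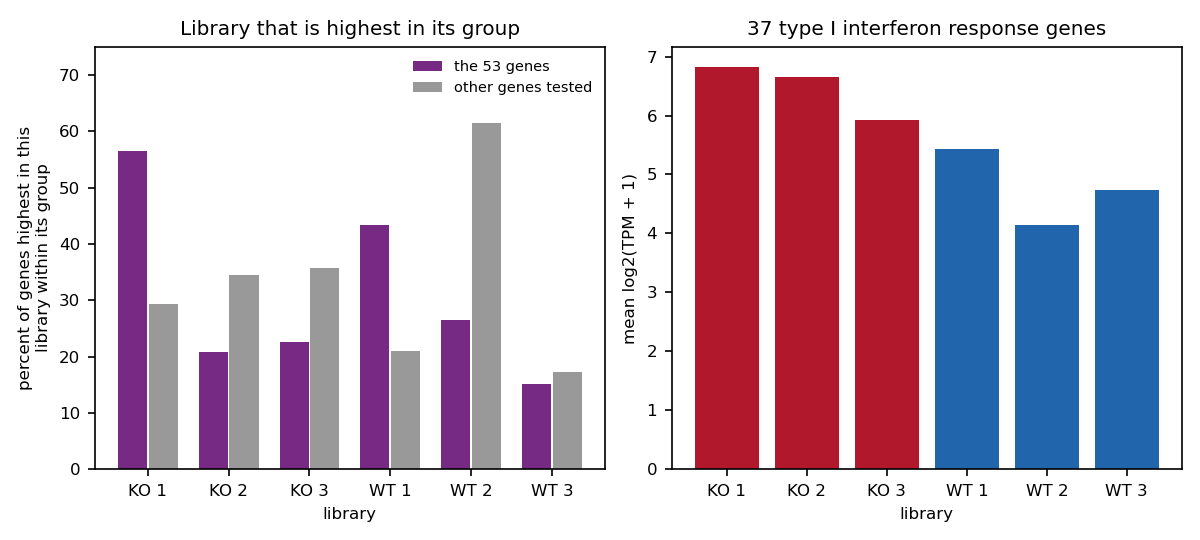
Left, percent of genes that are highest in each library within its group, for the 53 genes (purple) and 11048 other genes tested (grey). Right, mean log2(TPM + 1) of 37 type I interferon response genes by library, with knockout replicate 1 highest at 6.82 and wild-type replicate 2 lowest at 4.14.

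Within the group the members fell on both sides of this order. In 26 genes knockout replicate 1 exceeded replicate 2 and replicate 2 exceeded replicate 3, among them Stac, Slc1a2, Tarm1, Cyp2c69, Apol9a, Trim30b, Adora2a and Fst, and the median ratio of highest to lowest knockout value was 1.84. In 23 genes knockout replicate 1 was not the highest, among them Dleu7, Mfsd6, Pde11a, Abcc8, Gstp3, Epb41l4b, Slc1a3 and Tubb3, and the median ratio was 1.36. The ratio was at most 1.5 in 14 of these 23 genes and in 7 of the 26. Serpinb8, Sycp3, Tnfaip6 and Cdk18 were highest in knockout replicate 1 with the other libraries in another order.

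The values listed for the genes next to the 53 were not used in the rule, and 15 of these neighbours rose. They are not all independent of the choice, because reads may have been shared with a member. Gm38525, Chpt1, Slc9a5 and Bcl2l11 overlap a member, and Trim30a, Ifitm2 and Akr1c13 are relatives of a member. The nearest tested genes on each side within 100 kb, and those overlapping, came to 58 genes beside 37 members. With limma on log2(TPM + 1), 15 of the 58 (25.9%) rose and 1 (1.72%) fell in Trim33 knockout cells (adjusted p below 0.05, 3 libraries per group), against 4.47% higher and 10.2% lower of all 11111 genes tested. Their median log2 difference was 0.04, against -0.15 over all genes tested. All 53 members had every knockout value above every wild-type value by construction, which 9.84% of all genes tested also showed. The 15 genes numbered 9 when the distance was 50 kb, 11 without neighbours that overlap a member, 10 without the members on chromosome 8 and 7 without wild-type replicate 3.

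**Figure D4:**
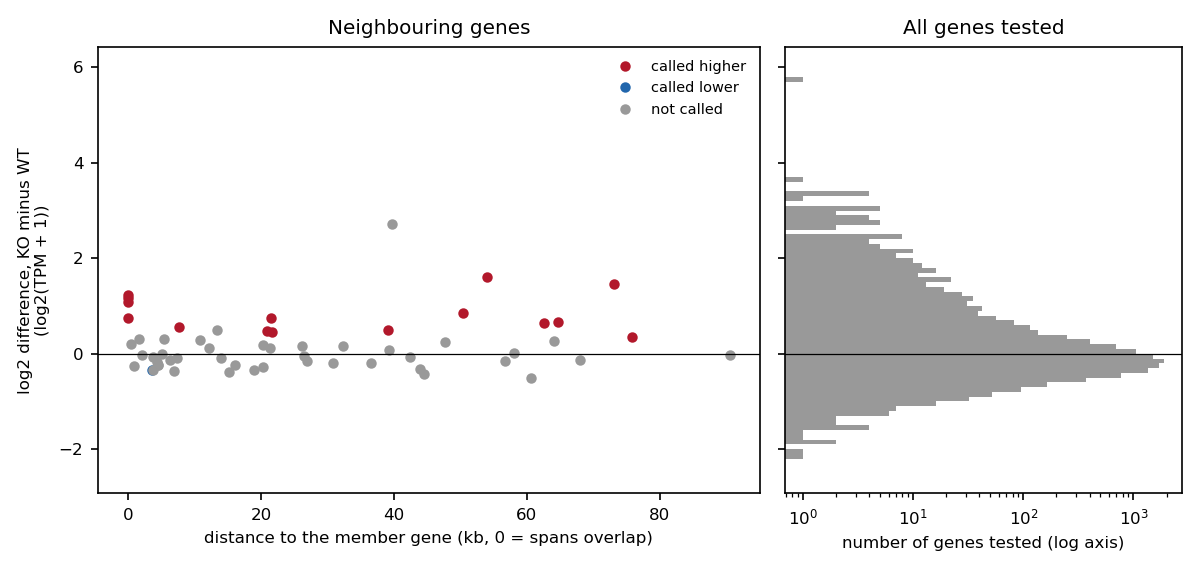
Left, log2 difference (knockout minus wild type, log2(TPM + 1)) of the 58 neighbouring genes against their distance from the nearest of the 53 genes, with 15 called higher in red and 1 called lower in blue. Right, the same difference for all 11111 genes tested, on a log axis of gene number.

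Among the neighbours called higher, the rises were largest in Tppp3 and Resf1. Ifitm3, 39763 bases from Ifitm1, differed more but did not pass (log2 difference 2.71 ± 0.66 SE, limma adjusted p 0.0607). It had 542.3, 443.62 and 184.96 TPM in knockout replicates 1, 2 and 3, against 108.04, 31.13 and 44.92 TPM in wild-type replicates 1, 2 and 3. Tppp3, a microtubule-binding protein gene, rose to 759 TPM in knockout, against 249 TPM in wild type (log2 difference 1.6 ± 0.14 SE, limma adjusted p 0.000324). Resf1, a factor of retroelement silencing, lies 73161 bases from Bicd1 and rose to 57.2 TPM in knockout, against 20.3 TPM in wild type (1.46 ± 0.10 SE, adjusted p 1.68e-05). Rnaseh2b, a subunit of the ribonuclease that removes RNA from RNA-DNA hybrids, lies 39089 bases from Dleu7 and rose to 102 TPM, against 72.3 TPM in wild type (0.49 ± 0.08 SE, adjusted p 0.00749).

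Acoxl overlaps the start of Bcl2l11, which encodes the death-promoting protein BIM, on the same strand. Bcl2l11 rose to 36.2 TPM in knockout, against 21.5 TPM in wild type (limma adjusted p 0.0231), a call lost without knockout replicate 1 or 3, without wild-type replicate 3 and without the filter. Gm38525, whose span covers Trim30b, rose to 9.22 TPM, against 3.42 TPM in wild type (limma adjusted p 0.00723). The other neighbours that rose were Trim30a, Ifitm2, Chpt1, Slc9a5, Fhod1, Zdhhc1, Akr1c13, Cks2, Def8 and Nmi. The calls of Zdhhc1 and Cks2 ended without the filter and with each library but wild-type replicate 1 omitted, that of Nmi without knockout replicate 1 or 2 or wild-type replicate 2 or 3, that of Def8 without knockout replicate 2 or wild-type replicate 3 and that of Akr1c13 without wild-type replicate 3. Cyp4v3, next to Fam149a, was the neighbour that fell, to 82.7 TPM, against 104.7 TPM in wild type, and it passed in 3 of 11 alternatives.

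By contrast, the neighbours of several of the strongest members did not pass the test. Cd44, 20357 bases from Slc1a2, had 625 TPM in knockout and 757 TPM in wild type (limma adjusted p 0.0678). Rbm45, 30814 bases from Pde11a, had 19.6 and 22.3 TPM (adjusted p 0.267), and Inpp1, 58067 bases from Mfsd6, had 6.94 and 6.85 TPM (adjusted p 0.952), knockout first in each. A missed threshold does not show that these genes were unaffected.

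Chromosome 8 carried 7 of the 53 genes (13.2%), against 5.20% of the genes in the table, and 3 of these lie in a stretch of it. Plekhg4 (105369640 to 105382860) had 2.12, 1.73 and 1.58 TPM in knockout replicates 1, 2 and 3, against 0.09, 0.11 and 0.04 TPM in wild-type replicates 1, 2 and 3. Its span overlaps the upstream gene Slc9a5 on the same strand by 242 bases and the convergent gene Kctd19 by 60 bases, and Hsd11b2 begins 105244 bases beyond Kctd19. Between and beside them Fhod1, Slc9a5, Tppp3 and Zdhhc1 rose, while Tmem208 and Atp6v0d1 did not pass (limma adjusted p 0.183 and 0.0872). Lrrc36, between Kctd19 and Tppp3, had 0.77, 0.76 and 0.34 TPM in knockout, against 0.04, 0.19 and 0.13 TPM in wild type. No other pair of members overlapped or lay as close together.

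Lists of genes that macrophages do not normally use were counted beside the 1.1% of all genes under 1 TPM in wild type that met the limits. Each list gave 2 genes or fewer, which is too few to say that a list lay above or below that share. Of 80 developmental transcription factor genes under 1 TPM in wild type none met the limits. Of 25 such neuronal genes known to be repressed by REST 1 did, Tubb3, and of 22 germline genes silenced by DNA methylation 1 did, Sycp3. In neural adhesion and axon guidance 2 of 61 met them, both among the genes left out by name. A list of another kind held 38 genes of the TGF-β pathway and SMAD targets in the table, of which only 9 were under 1 TPM in every wild-type library. None of the 38 was a member. Of the 27 with a test, limma called 3 higher and 4 lower (adjusted p under 0.05), with a median log2 difference of 0.05. Leaving out knockout replicate 2 gave 1 higher and 2 lower, wild-type replicate 1 gave 5 higher and 6 lower, and wild-type replicate 3 gave 2 higher and 2 lower. Leaving out knockout replicate 1 or 3 or wild-type replicate 2 gave 3 higher and 2 lower.

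The immune response and monocyte lists were also counted. Over all 11111 genes tested, limma called 497 higher and 1129 lower, and 977 and 3163 at an unadjusted p under 0.05. Of 37 type I interferon response genes outside the group, 14 were higher and none lower (limma, adjusted p under 0.05; 37 higher and 0 lower at an unadjusted p under 0.05), with a median log2 difference of 1.79. The count was 4, 2 and 13 without knockout replicates 1, 2 and 3, and with wild-type replicates 1, 2 and 3 omitted it was 33, 5 and 0. In the interferon gamma list 9 of 26 tested genes were higher and none lower (limma; 19 and 1 unadjusted), with 0 higher when knockout replicate 2 or wild-type replicate 2 or 3 was omitted. In the NF-kB list 10 of 27 were higher and none lower (limma; 14 and 0 unadjusted), with 3 to 13 higher when a library was omitted, the fewest without wild-type replicate 3. Of 17 markers of monocytes and interstitial macrophages outside the group, 5 were higher and none lower (limma; 12 and 0 unadjusted), and the counts were 2, 2 and 9 with knockout replicates 1, 2 and 3 omitted in turn, and 6, 1 and 0 with wild-type replicates omitted. Their sums over all 20 markers were 2068 to 2258 TPM in knockout and 1371 to 1703 TPM in wild type, and none was at 0 in every library. Gpnmb alone had 939.18 to 1088.92 TPM in knockout and 685.97 to 774.85 TPM in wild type. C1qb, a complement gene of tissue macrophages of monocyte origin, had 58.43, 38.12 and 14.15 TPM in knockout replicates 1, 2 and 3, against 11.62, 4.63 and 4.78 TPM in wild-type replicates 1, 2 and 3, and Ccr2, the monocyte chemokine receptor gene, had 6.27, 4.23 and 3.0 TPM, against 4.04, 5.88 and 4.58 TPM. The part of such cells in the values of the 53 genes was not tested.

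Of the 20 alveolar macrophage markers, none was higher and 10 were lower (limma; 1 and 11 at an unadjusted p under 0.05), with 5 lower without knockout replicate 1 and 4 without knockout replicate 2 or wild-type replicate 2 or 3. After median-ratio scaling 5 were lower, and none of the 20 was a member. Of all 11111 genes tested, 977 were higher and 3163 lower at an unadjusted p under 0.05 (limma). Markers of other cell types differed in level. The T cell gene Cd3e did not exceed 0.51 TPM in knockout or 0.32 TPM in wild type. The neutrophil gene Ly6g was listed at 0.20 TPM in knockout replicate 1 and at 0 elsewhere, but other neutrophil markers were present. The 13 of them summed to 177 to 198 TPM in knockout and 186 to 201 TPM in wild type. S100a8 had 126.22 to 130.61 TPM in knockout and 94.05 to 124.22 TPM in wild type, and Mmp8 17.01 to 40.35 and 31.88 to 59.72 TPM. Of 5 tested, none was higher or lower (limma; 2 and 1 unadjusted), with 2 higher and 1 lower without wild-type replicate 1. The summed markers of T and natural killer cells, 714 to 772 TPM in knockout and 543 to 654 TPM in wild type, were almost entirely Cd2. Of 7 of them tested, limma called Cd2, Gzma and Il7r higher and none lower (4 and 0 unadjusted), with 0 higher when any knockout library was omitted and 1 without wild-type replicate 2 or 3. Of 2 B and plasma cell markers tested, none was higher and Jchain fell, to 1.36 TPM in knockout, against 3.47 TPM in wild type (limma adjusted p 0.0139, lost without wild-type replicate 3). Lung epithelial markers summed to 1029 to 1341 TPM in knockout and 589 to 623 TPM in wild type, and most of the knockout sum was Tppp3, the neighbour of Kctd19 that is also a marker of ciliated cells. Of 12 tested, 2 were higher and none lower (limma), Tppp3 and Hopx, a regulator known from alveolar epithelium, and the count stayed at 2 higher with each library omitted. Hopx rose to 95.8 TPM in knockout, against 24.8 TPM in wild type (log2 difference 1.91 ± 0.10 SE, limma adjusted p 1.331e-06). The club cell gene Scgb1a1 had 64.87, 150.11 and 88.74 TPM in knockout replicates 1, 2 and 3, against 113.02, 119.21 and 91.05 TPM in wild-type replicates 1, 2 and 3, and the ciliated cell regulator Foxj1 did not exceed 0.63 TPM in knockout or 1.13 TPM in wild type. The part of epithelial cells in the Tppp3 values was not tested.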

How the data were processed

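RNA-seq of primary alveolar macrophages was analysed from 3 Trim33 knockout and 3 wild-type libraries. The authors deposited TPM and FPKM values per gene, rounded to 2 decimals, per the file headers. HISAT2 2.0.4, Bowtie2 2.2.5 and the build GRCm38.p6 are listed, with no role, in the submitters' processing notes. The program that estimated expression is not given in the sources used here. TPM keeps no depth, so no counting interval is given. Of 17142 genes, 17024 (99.3%) matched RefSeq by Entrez ID, which gave positions, and strands came from GENCODE M21 on the same build.

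The test was limma 3.58.1 (R 4.3.3, trend and robust) of log2(TPM + 1) over the 11111 genes that reached 1 TPM in 3 or more of the 6 libraries, with Benjamini-Hochberg adjustment at 0.05, and the script was tested on simulated data. A log2 difference is on that scale and understates low genes. Members, roles, lists and relatives were chosen with earlier results of these data known. All members are named but 1, which is not reported here and stays in the counts and sums. Values in every library are given for those named among the 20 with the highest knockout mean, those at 0 in wild type, those on a list and those at the edge. Neighbours are named where called, and the uncalled ones and the relatives that are named were picked with their values in view. Roles were assigned by hand.

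Alternatives were FPKM, median-ratio scaling, limits of 0.5 and 2 TPM, a pseudocount of 0.1, no filter, the replicate block, a distance of 50 kb and leaving out each library. Figures used matplotlib 3.10.9 in Python 3.11.15.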

Additional observations from a re-analysis of the deposited data

How the results depend on the processing

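The number of genes that met the limits was 53 on TPM, 48 on FPKM, 67 after median-ratio scaling, 57 with a limit of 0.5 TPM and 45 with 2 TPM, but only 16, 17 and 13 of the 53 were kept on FPKM and with limits of 0.5 and 2 TPM. TPM was 1.82 to 2.03 times FPKM by library, so the same limit falls at another level. With a library left out the number ran from 57 to 81, the highest without wild-type replicate 2. In the opposite direction it was 30, 17 after median-ratio scaling and 35 to 75 with a library left out, the highest without wild-type replicate 1. Genes called higher by limma numbered 497, and 124 to 800 with a library left out, and those called lower 1129, and 84 to 2577. Lower genes numbered 326 without the filter and 383 after median-ratio scaling, where the median log2 difference was -0.0025 instead of -0.15. Same-numbered libraries did not deviate together in every pair (correlations of deviations 0.32, -0.03 and 0.09), and only knockout replicate 1 correlated best with its own number. A fit with the replicate number as a block called 753 higher and 2147 lower, with 5 neighbours lower. Neighbours called higher ranged from 7 to 18 with a library left out and numbered 9 within 50 kb. The 1 neighbour called lower became 0 on FPKM, without the filter, after median-ratio scaling and, in an alternative added after the data were seen, without members on chromosome 8, and ranged from 0 to 4 with a library left out. Neighbours that do not overlap a member, also added after the data were seen, gave 11 higher and 1 lower. The causes of these moves were not tested. Depth is unknown, so levels near 1 TPM have no counting error attached.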
